A study of Mus musculus with 144 samples.

Results

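The spleens of mice that carry an inducible naked mole-rat hyaluronan synthase 2 gene (nmrHAS2) were compared at 24 and 6 months of age, across all genes. The members were the 12 spleen libraries labelled nmrHAS2, of 144 libraries of 6 tissues in all: 3 old females, 3 old males, 3 young females and 3 young males. The other 12 spleen libraries came from CreER control mice of the same ages and sexes and stand here only beside the nmrHAS2 values. As known of the study, the transgene was placed behind a ubiquitous promoter and a removable stop, and both genotypes carry a tamoxifen-inducible Cre recombinase and received tamoxifen, so that CreER mice have the recombinase alone. The study asked by which means nmrHAS2 mice come to live longer and in better health. RNA was taken from pulverised frozen spleen, and the labels do not tie a library to an animal, so the tests compare with a spread between samples that may be technical in part.

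The spleen filters blood and houses immune responses. Its white pulp holds follicles of B cells and a zone of T cells, and its red pulp holds macrophages that clear aged red cells and recycle their iron. In mice the spleen also makes red cells, platelets and granulocytes throughout life. Known changes of the ageing mouse spleen are fewer naive T cells, more antigen-experienced T cells and B cells, and more myeloid cells, with rising inflammatory and interferon transcripts. Hyaluronan, the sugar polymer made by the transgene's enzyme, fills the space between cells and, when very long, dampens inflammation.

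The transgene's own level was low in spleen and overlapped between the ages. Its CPM (counts per 1 M counts of the library) were 4.09, 1.16 and 1.25 in old females, 4.10, 3.44 and 5.29 in young females, 1.03, 1.4 and 0.353 in old males and 0.723, 1.58 and 0.992 in young males. Old male nmrHAS2 3 lay below all 3 old male CreER libraries, at 0.617, 0.529 and 0.421 CPM, against 0.0939 to 1.89 CPM over all 12 CreER libraries, and old female nmrHAS2 2 and 3 lay below old female CreER 2, the highest CreER library, at 1.89 CPM. The transgene thus did not separate the genotypes at 24 months in either sex, and the male library is called the library labelled old male nmrHAS2 3 below. In the young, every nmrHAS2 library lay above the CreER libraries of its sex. Young CreER libraries stood at 0.314, 0.206 and 0.319 CPM in females and 0.177, 0.113 and 0.0939 CPM in males. These male values rest on 2 to 4 counts each. The change of the transgene with age was -0.55 ± 0.41 (SE; adjusted p = 0.45) on the log2 scale, and that of the mouse gene Has2 was 0.11 ± 0.24 (SE; adjusted p = 0.84). Neither passed the test.

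Several features of the libraries touch the results. Sex went with the kind of library at both ages: the 6 female nmrHAS2 libraries held 60.3 to 102.5 M counts with 16.6 to 23.8% on 14 RNAs that lack a poly(A) tail, and the 6 male libraries held 20.5 to 28.3 M counts with 0.033 to 0.105% on them, so sex and library kind cannot be told apart. Young female nmrHAS2 1 and 2 shared nearly the same use of immunoglobulin and T cell receptor V segments, the pieces that differ between lymphocyte clones. Across 330 segments their log2 shares correlated at r = 0.996, and Ighv5-4 took 32.2 and 30.9% of their heavy chain V counts. Old male CreER 1 and 3 were alike in the same way, at r = 0.992, while the other 22 pairs of libraries within a spleen group lay between 0.792 and 0.953. In the other genes both pairs still differed by more than counting noise, with a chi-square per gene of 34.9 and 21.3, against 44.4 to 951 in the other pairs. Whether each pair comes from 1 animal was not tested, and results are therefore also given with each pair summed into 1 library. Young male nmrHAS2 3 stood apart on the third principal component, at 79.6 against -53.8 to 38.6 in the other 11 nmrHAS2 libraries, with the highest summed erythroid and proliferation markers. Of 12 genes that identify spleen, 10 lay above every other tissue's median in all 12 libraries, Marco in 11, and Cd209b, which marks marginal zone macrophages, in 2.

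With age, 1139 genes rose and 702 fell in nmrHAS2 spleen. Among the genes that the naming rule admits, which average at least 2 CPM, the largest rise was that of Gzmk, a granzyme of antigen-experienced T cells, and the largest fall that of Car3, a carbonic anhydrase of fat cells. The falls with the smallest p among them included Lef1 and Satb1, transcription factors of naive T cells. Genes called among cytotoxic T cell, macrophage, interferon-induced and cytokine genes had all risen, and those among naive T cell, fat and mesothelial markers had all fallen; the mesothelium is the outer lining of the spleen. Of 20851 genes tested, those that rose were 5.46% and those that fell 3.37% (8.83% together), with a median log2 change over all genes of -0.05, by edgeR's quasi-likelihood test with Benjamini-Hochberg adjustment over all genes at a threshold of 0.05, which holds for every adjusted p below. Among the genes that rose 1108 had a positive change in both sexes, and among those that fell 695 had a negative change in both. The genes were called on the mean change of both sexes, which favours a shared sign, so these counts are no separate test. Fitted on the 12 nmrHAS2 libraries alone, without the estimate of spread shared with CreER, 862 genes rose and 252 fell. With the alike libraries summed, 549 genes rose and 300 fell, and 843 of the 1841 genes called were called again. Without the library labelled old male nmrHAS2 3 the counts were 738 and 304, and across the 12 fits that each leave out 1 nmrHAS2 library the total ran from 924 (without young female nmrHAS2 2) to 2381 (without old male nmrHAS2 2), with 973 without young female nmrHAS2 1, 1099 without young male nmrHAS2 2 and 1130 without old female nmrHAS2 1. When each of the 12 nmrHAS2 libraries was left out in turn, Gzmk, Car3, Lef1 and Satb1 kept the call throughout.

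**Figure D1:**
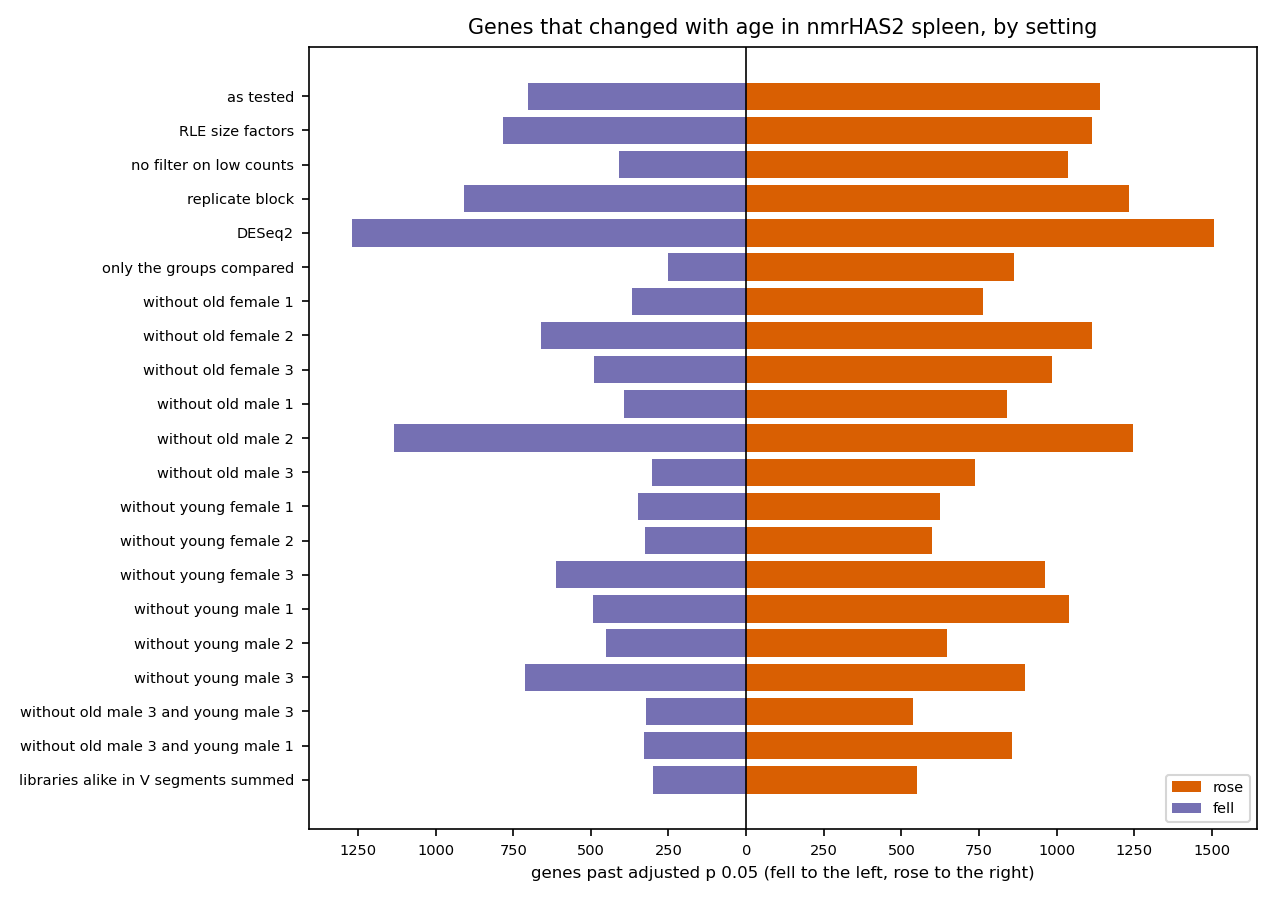
Number of genes that rose (bars to the right) or fell (bars to the left) with age in nmrHAS2 spleen under each setting, one row per setting; library names are those of nmrHAS2 mice. Rises outnumbered falls in every row, and the total was lowest, at 849, with the libraries alike in V segments summed.

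Genes of naive T cells fell with age in nmrHAS2 spleen, 8 of 15 tested, and 0 rose (median log2 change -0.75), and 6 fell with the alike libraries summed and 5 both without the library labelled old male nmrHAS2 3 and in the fit on nmrHAS2 libraries alone. Lef1 measured 3.24, 4.13 and 7.31 CPM in the old females and 8.32, 10.1 and 3.47 CPM in the old males. Values in the young were 13.9, 13.8 and 25.1 CPM in females and 41.8, 27.3 and 18 CPM in males. All 6 old libraries lay below all 6 young ones, and the log2 change was -1.92 ± 0.30 (SE; adjusted p = 0.0011). Satb1, a chromatin organiser of T cells, measured 32.5, 22.7 and 39.3 CPM in the old females and 21.4, 38.8 and 13.8 CPM in the old males. In young females it was at 71.2, 78.3 and 90.8 CPM, and in young males at 101, 69.8 and 42.4 CPM. Here too the old and young ranges did not overlap, with a change of -1.44 ± 0.24 (SE; adjusted p = 0.002). The genes were picked by their change in these same libraries, so ranges that lie apart are no further test, here and below. Dapl1, a gene of naive and early memory T cells, changed by -2.44 ± 0.54 (SE; adjusted p = 0.0099), and Bach2, a repressor that holds lymphocytes in an undifferentiated state, by -1.38 ± 0.32 (SE; adjusted p = 0.013). Ccr7, the receptor that guides naive cells to the T zone, changed by -0.94 (adjusted p = 0.014), Tcf7, the partner of Lef1, by -1.0 (adjusted p = 0.027), and Klf2, which controls exit from lymphoid organs, by -0.81 (adjusted p = 0.039). Il7r, the receptor for the survival signal interleukin-7, had 0.06 (adjusted p = 0.96). In bulk RNA fewer cells of a type and less RNA per cell cannot be told apart, here and for every marker list below. Of 19 T cell markers 0 rose and 2 fell: Trat1, an adaptor of the T cell receptor, at -1.38 ± 0.29 (SE; adjusted p = 0.0072), and Tcf7. Cd3e, Cd3g and Cd2 had log2 changes of -0.39, 0.03 and 0.01 with adjusted p of 0.45, 0.97 and 1. Across the 12 fits that each lacked 1 library, Dapl1, Bach2, Ccr7 and Trat1 kept the call throughout. The call was lost in 6 fits for Tcf7 and 9 for Klf2, with adjusted p of at most 0.11 (Klf2, without young male 1).

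Of 23 genes of cytotoxic and exhausted T cells 15 rose and 0 fell (median 1.12), and 15 rose without the library labelled old male nmrHAS2 3 and 12 with the alike libraries summed. Gzmk measured 9.80, 29.5 and 63.9 CPM in the old females and 15.1, 8.52 and 6.34 CPM in the old males. At 6 months the females stood at 1.52, 1.77 and 2.02 CPM and the males at 1.43, 0.334 and 0.730 CPM. Every old library lay above every young one, in both sexes, and the log2 change was 3.93 ± 0.46 (SE; adjusted p = 0.00022). Gzmm, another granzyme, rose by 1.68 ± 0.33 (SE; adjusted p = 0.0048), and Gzmb, the granzyme of activated killer cells, by 1.49 (adjusted p = 0.017). The chemokines Ccl4, Ccl3 and Ccl5, which killer T cells release on activation, rose by 1.90 (adjusted p = 0.00083), 1.72 (adjusted p = 0.00092) and 1.29 (adjusted p = 0.0079). They are counted again in the cytokine and chemokine list below, and bulk RNA does not show which cells made them. Inhibitory receptors rose as well: Pdcd1 (PD-1) by 1.35 (adjusted p = 0.026), Lag3 by 1.27 (adjusted p = 0.015), Tigit by 1.18 (adjusted p = 0.032), Ctla4 by 1.26 (adjusted p = 0.021) and Havcr2 (TIM-3) by 0.68 (adjusted p = 0.01). Cd8a and Cd8b1, which encode the CD8 co-receptor of these cells, had changes of -0.66 (adjusted p = 0.095) and -0.52 (adjusted p = 0.23), and the pore-forming Prf1 of 0.49 (adjusted p = 0.39). Of 17 helper and regulatory T cell genes 7 rose and 0 fell, and 2 rose with the alike libraries summed. Il10, an immunosuppressive cytokine, measured 2.53, 16.0 and 3.71 CPM in the old females and 4.61, 2.98 and 2.60 CPM in the old males. The young females had 0.798, 0.737 and 2.25 CPM and the young males 0.260, 0.501 and 0.365 CPM. Old and young values did not overlap, and the change was 2.86 ± 0.46 (SE; adjusted p = 0.0015). Il21, the cytokine of follicular helper T cells, rose by 1.71 (adjusted p = 0.02), and Foxp3, the factor that defines regulatory T cells, had a change of 0.32 (adjusted p = 0.62). Among 16 natural killer cell markers 1 rose and 0 fell, beside 5.46% of all genes tested that rose. It was Eomes, a transcription factor of killer and memory T cells, at 1.18 (adjusted p = 0.026). With 1 library left out at a time, Gzmm, Gzmb, Ccl4, Ccl3, Ccl5, Lag3, Havcr2 and Il10 kept the call throughout. Calls did not hold in 3 fits for Il21, 4 for Pdcd1 and Ctla4, 6 for Eomes and 7 for Tigit, with adjusted p of at most 0.081 (Eomes, without old female 3).

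**Figure D2:**
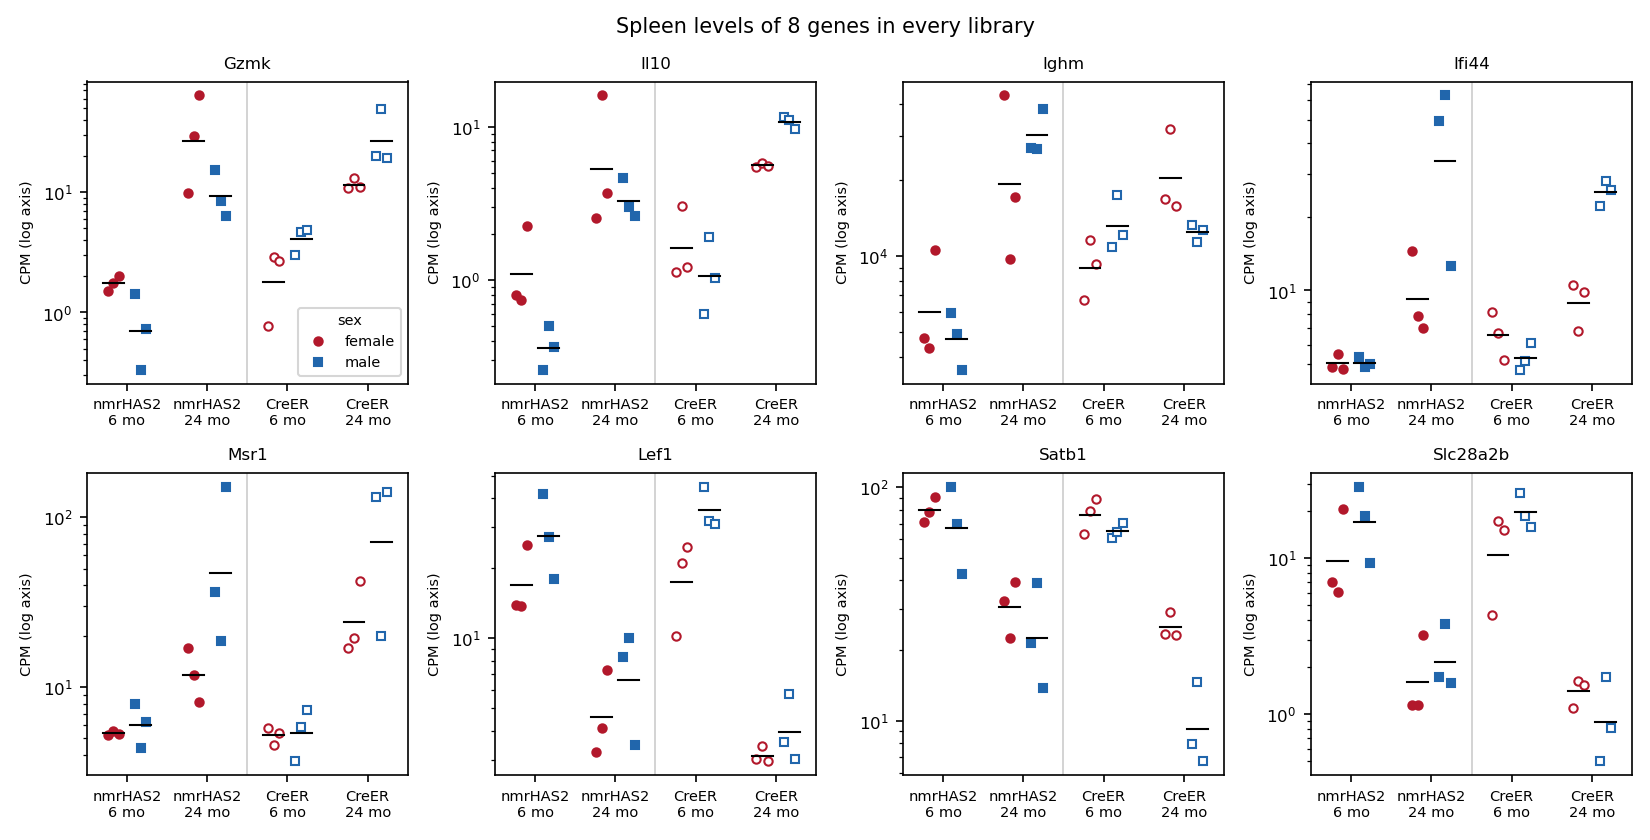
CPM (log axis) of 8 genes in every spleen library, by genotype and age; red circles are females, blue squares males, filled symbols nmrHAS2 and open symbols CreER, and each bar is the geometric mean of 3 libraries. In nmrHAS2, Gzmk, Il10, Ifi44 and Msr1 lie higher and Lef1, Satb1 and Slc28a2b lower in all 6 old libraries than in all 6 young ones, while Ighm overlaps through the females.

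Some B cell genes fell and some genes of antibody production rose. Of 18 B cell markers 4 fell and 0 rose (median -0.62), and 1 fell with the alike libraries summed. Ralgps2 fell by 0.99 ± 0.21 (SE; adjusted p = 0.0074) on the log2 scale. Cr2, a complement receptor of B cells and follicular dendritic cells, changed by -1.37 (adjusted p = 0.026), Fcer2a, the low-affinity IgE receptor of follicular B cells, by -1.84 (adjusted p = 0.043), and Ebf1, a B lineage factor, by -1.02 (adjusted p = 0.049). Cd79a, a signalling chain of the B cell receptor, had a change of -0.62 (adjusted p = 0.13). Of 14 markers of age-associated B cells 7 rose and 0 fell, against 2 rises with the alike libraries summed and 3 in the fit on nmrHAS2 libraries alone. The leading members, Itgam at 1.43 (adjusted p = 0.0052) and Itgax at 1.06 (adjusted p = 0.006), encode the integrins CD11b and CD11c, which myeloid cells also carry; the list's defining factor Tbx21 had 0.39 (adjusted p = 0.47). Of 18 plasma cell markers 7 rose and 0 fell (median 0.60), and 3 with the alike libraries summed. In females alone 0 of them passed, and in males alone 5 rose and 0 fell. Shares that rose over all genes tested were 0.58% in females and 3.17% in males. Prdm1, the master factor of plasma cells, measured 26.6, 22.6 and 20.7 CPM in the old females and 29.4, 24.8 and 14.7 CPM in the old males. Values in the young were 13.1, 13.2 and 19.4 CPM in females and 6.97, 8.89 and 7.24 CPM in males. The old lay above the young within each sex, with a change of 1.09 ± 0.22 (SE; adjusted p = 0.0051). Txndc5 and Creld2, helpers of protein folding in secreting cells, rose by 1.08 (adjusted p = 0.0084) and 0.84 (adjusted p = 0.0086), Xbp1 by 0.70 (adjusted p = 0.017) and Sdc1 (CD138) by 0.86 (adjusted p = 0.034), while Jchain had 0.45 (adjusted p = 0.31). In the 12 fits without 1 library each, Ralgps2, Itgam, Itgax, Prdm1, Txndc5 and Creld2 kept the call throughout. The threshold was missed in 2 fits for Xbp1, 7 for Cr2 and Sdc1, 9 for Ebf1 and 11 for Fcer2a, with adjusted p of at most 0.12 (Sdc1, without old female 1).

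Among 12 immunoglobulin constant genes 4 rose and 0 fell, and 2 rose with the alike libraries summed. Ighm, the heavy chain of IgM, measured 43326, 9778 and 17153 CPM in the old females and 26899, 26543 and 38160.5 CPM in the old males. In young females it was at 4729, 4312 and 10606 CPM, and in young males at 5983, 4921 and 3550.4 CPM. Old and young males did not overlap, whereas old female 2 lay below young female 3. Its log2 change was 2.25 ± 0.33 (SE; adjusted p = 0.00085), 1.84 in females and 2.66 in males. Igkc, the kappa light chain, rose by 1.68 ± 0.27 (SE; adjusted p = 0.0016), Ighg1 by 2.24 (adjusted p = 0.047) and Ighe, the heavy chain of IgE, by 2.69 (adjusted p = 0.027). Igha, Ighd and Ighg2c had changes of -1.04 (adjusted p = 0.2), -0.82 (adjusted p = 0.071) and -0.42 (adjusted p = 0.67). Constant genes resemble each other in sequence, and how the authors' counting divided reads among them is not stated in the sources used here, and single members are uncertain. Of 24 genes of the unfolded protein response and secretion 6 rose, namely Xbp1, Herpud1, Chac1, Dnajb9, Edem1 and Sdf2l1, by 0.45 to 1.21, and 0 fell; with the alike libraries summed 0 rose, and 2 on nmrHAS2 libraries alone. When each of the 12 nmrHAS2 libraries was left out in turn, Ighm and Igkc kept the call throughout. No call was made in 6 fits for Ighe, 7 for Herpud1, Chac1 and Dnajb9, 8 for Edem1 and Sdf2l1 and 9 for Ighg1, with adjusted p of at most 0.19 (Ighg1, without old female 2).

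Of 19 macrophage markers 8 rose and 0 fell (median 0.68, 0.47 in females and 1.03 in males, a gap not tested as a list). Again 8 rose both without the library labelled old male nmrHAS2 3 and with the alike libraries summed. In females alone 0 passed, and in males alone 9 rose and 1 fell. Of all genes tested 0.58% rose in females, and 3.17% rose and 0.767% fell in males. Cd68, a lysosomal protein of phagocytes, measured 98.1, 65.2 and 85.2 CPM in the old females and 225, 205 and 216 CPM in the old males. At 6 months the females stood at 62.5, 52.7 and 57.0 CPM and the males at 90.2, 58.7 and 74.2 CPM. The old lay above the young in each sex, and the change was 1.03 ± 0.17 (SE; adjusted p = 0.0019). Msr1, a scavenger receptor, measured 17.0, 11.8 and 8.13 CPM in the old females and 36.6, 18.7 and 152 CPM in the old males. The young females had 5.27, 5.51 and 5.27 CPM and the young males 8.01, 4.38 and 6.25 CPM. Its old and young ranges did not overlap, and old male 3 was the highest, with a change of 2.34 ± 0.46 (SE; adjusted p = 0.0053). The 3 chains of complement C1q rose together: C1qa by 1.12 (adjusted p = 0.0076), C1qb by 1.23 (adjusted p = 0.0056) and C1qc by 1.07 (adjusted p = 0.0081). The Fc receptor Fcgr1 rose by 1.49 (adjusted p = 0.0031), the growth factor receptor Csf1r by 0.65 (adjusted p = 0.0046) and the dead-cell receptor Mertk by 0.61 (adjusted p = 0.0056). Adgre1 (F4/80) had 0.68 (adjusted p = 0.22). Of 19 genes of red pulp macrophages and iron recycling 3 rose, and 5 on nmrHAS2 libraries alone: in the joint fit these were Vcam1 by 0.77 (adjusted p = 0.0036), the lysosomal metal transporter Slc11a1 by 0.96 (adjusted p = 0.0037) and Treml4 by 0.89 (adjusted p = 0.048). Spic, the factor that defines these cells, Hmox1, which breaks down haem, and the iron exporter Slc40a1 had 0.51 (adjusted p = 0.15), 0.42 (adjusted p = 0.38) and 0.42 (adjusted p = 0.36). In the marginal zone list of 8 genes 2 rose and 2 fell: Ccl24 at 1.63 (adjusted p = 0.0096) and Nr1h3 at 0.55 (adjusted p = 0.023), against the lectins Cd209d at -1.52 (adjusted p = 0.01) and Cd209a at -1.79 (adjusted p = 0.026). The Cd209 genes are near copies of each other and uncertain one by one. Across the 12 fits that each lacked 1 library, Cd68, Msr1, C1qa, C1qb, C1qc, Fcgr1, Csf1r, Mertk, Vcam1, Slc11a1, Ccl24 and Cd209d kept the call throughout. The adjusted p exceeded 0.05 in 5 fits for Nr1h3 and Cd209a and 10 for Treml4, with adjusted p of at most 0.14 (Treml4, without old female 1).

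Of 20 monocyte and dendritic cell markers 6 rose and 6 fell. The rises were those of the monocyte genes Ccr2, Vcan, Ly6c2 and F13a1, and of Clec10a, by 1.545 (adjusted p = 0.0076), and Bst2, given below. The falls were those of Cd300c, Cd209a, Ccr9, Siglech, Zbtb46 and Clec9a. With the alike libraries summed 3 rose and 2 fell, and on nmrHAS2 libraries alone 3 rose and 1 fell. Vcan, a hyaluronan-binding proteoglycan made by monocytes, measured 16.4, 6.72 and 21.4 CPM in the old females and 8.23, 8.56 and 25.5 CPM in the old males. Values in the young were 4.60, 4.69 and 3.61 CPM in females and 2.77, 6.55 and 3.34 CPM in males. No old library overlapped a young one, and the change was 1.76 ± 0.36 (SE; adjusted p = 0.0065). Ccr2, the receptor that draws monocytes from the marrow, rose by 0.80 ± 0.15 (SE; adjusted p = 0.0044). Siglech and Ccr9, of plasmacytoid dendritic cells, changed by -0.82 (adjusted p = 0.029) and -0.93 (adjusted p = 0.026), and Zbtb46 and Clec9a, of conventional dendritic cells, by -0.38 (adjusted p = 0.037) and -0.43 (adjusted p = 0.048). With 1 library left out at a time, Ccr2, Vcan and Clec10a kept the call throughout. A call was missing in 3 fits for Cd300c, 4 for Ly6c2, 6 for Ccr9 and Siglech, 7 for Zbtb46, 8 for F13a1 and 11 for Clec9a, with adjusted p of at most 0.16 (F13a1, without old male 3).

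Of 31 interferon-induced genes 12 rose and 0 fell, and all 31 fitted changes were above 0 (median 0.66, 0.33 in females and 0.98 in males, a gap not tested as a list). In females alone 0 members passed, and in males alone 13 rose and 0 fell. Over all genes tested, the share that rose was 0.58% in females and 3.17% in males. Without the library labelled old male nmrHAS2 3 there were 16 rises, and with the alike libraries summed 6, and on nmrHAS2 libraries alone 7. Ifi44 measured 14.5, 7.83 and 7.02 CPM in the old females and 49.3, 63.1 and 12.6 CPM in the old males. In young females it was at 4.84, 5.51 and 4.77 CPM, and in young males at 5.32, 4.88 and 5.0 CPM. Its ranges did not overlap, old males 1 and 2 were the highest, and the change was 2.0 ± 0.27 (SE; adjusted p = 0.00049). Irf7, the factor that amplifies interferon production, rose by 1.42 ± 0.26 (SE; adjusted p = 0.0036), Oas1a, a sensor of double-stranded RNA, by 1.21 ± 0.23 (SE; adjusted p = 0.0041), and Zbp1, a sensor of unusual nucleic acids, by 0.90 ± 0.19 (SE; adjusted p = 0.0074). Oas2, also an RNA sensor, had -0.02 in females and 2.45 in males, and the difference between the sexes had an adjusted p of 0.11. Isg15 and Cxcl10 had 0.76 (adjusted p = 0.3) and 0.41 (adjusted p = 0.41). In the 12 fits without 1 library each, Ifi44, Irf7, Oas1a and Zbp1 kept the call throughout. The call was lost in 1 fit for Oas2, with adjusted p of at most 0.057 (Oas2, without old female 1).

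An element through which interferon can act, though not the only one, is the interferon-stimulated response element. It was searched for as GAAA, any NN and GAAA on both strands, in the 250 bases before the start of RefSeq genes (GRCm38.p6). Overlapping matches count separately. Of the 12 members that rose 9 are in the table of promoters, and 4 of them hold a match (44.4%), as do 10 of the 14 other members in the table (71.4%), beside 3.46% of 27025 genes and 2.98% of all 32851 promoters. The promoters of those 4 are shown because they carry the element in rising genes, with the matches in capitals. Each holds 2 matches. On the minus strand of the genome lie Oas1a, at chr5:120907526-120907775, and Bst2, at chr8:71537473-71537722; on the plus strand lie Ifit3, at chr19:34583279-34583528, and Ifit3b, at chr19:34607707-34607956.
Oas1a: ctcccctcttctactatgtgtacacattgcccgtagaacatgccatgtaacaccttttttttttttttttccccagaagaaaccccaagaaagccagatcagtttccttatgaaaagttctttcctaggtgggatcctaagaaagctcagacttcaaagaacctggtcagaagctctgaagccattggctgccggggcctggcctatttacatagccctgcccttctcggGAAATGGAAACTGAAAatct
Bst2: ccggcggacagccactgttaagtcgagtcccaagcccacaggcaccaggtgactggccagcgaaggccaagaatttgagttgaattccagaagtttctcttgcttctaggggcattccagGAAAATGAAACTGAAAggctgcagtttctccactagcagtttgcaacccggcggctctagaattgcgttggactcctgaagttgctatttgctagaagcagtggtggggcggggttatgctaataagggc
Ifit3: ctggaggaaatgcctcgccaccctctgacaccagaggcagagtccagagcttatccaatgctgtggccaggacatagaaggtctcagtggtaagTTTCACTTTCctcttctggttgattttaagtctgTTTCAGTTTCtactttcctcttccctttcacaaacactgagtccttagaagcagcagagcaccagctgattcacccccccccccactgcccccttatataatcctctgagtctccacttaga
Ifit3b: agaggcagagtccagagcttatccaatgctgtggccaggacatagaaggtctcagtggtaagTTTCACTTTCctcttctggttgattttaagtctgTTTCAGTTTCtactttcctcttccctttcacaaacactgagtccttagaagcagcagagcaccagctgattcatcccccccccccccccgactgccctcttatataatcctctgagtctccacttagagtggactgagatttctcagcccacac
The matches begin 20 and 14 bases before the start of Oas1a and 130 and 124 before that of Bst2, and overlap in both. In Ifit3 they begin 156 and 122 bases before the start, read on the opposite strand to the one shown, and in Ifit3b 188 and 154. The Ifit3 and Ifit3b promoters share a run of 169 identical bases, and the genes themselves are near copies, so their rises, 1.05 (adjusted p = 0.033) and 1.09 (adjusted p = 0.034), are uncertain one by one. Bst2, which tethers budding virus to the cell, rose by 0.54 (adjusted p = 0.022). A match is a description of these letters and not a shown site. When each of the 12 nmrHAS2 libraries was left out in turn, the call was lost in 5 fits for Bst2, 7 for Ifit3 and 8 for Ifit3b, with adjusted p of at most 0.11 (Ifit3b, without old female 1).

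Of 32 inflammatory cytokine and chemokine genes 12 rose and 0 fell (median 0.75), and 7 with the alike libraries summed. Beside Ccl3, Ccl4, Ccl5 and Il10 these were Ccl12 at 2.14 (adjusted p = 0.0072), Cxcl2, which draws neutrophils, at 1.61 (adjusted p = 0.021), Casp4, the inflammatory caspase that senses bacterial lipopolysaccharide, at 0.93 (adjusted p = 0.0045), Il18 at 0.80 (adjusted p = 0.015), Ccl6 at 0.94 (adjusted p = 0.025), Nlrp3 at 0.40 (adjusted p = 0.033), Tlr4 at 0.67 (adjusted p = 0.035) and Cxcl9 at 1.10 (adjusted p = 0.049). Tnf, Il6 and Il1b had 0.47 (adjusted p = 0.18), 0.82 (adjusted p = 0.19) and 0.69 (adjusted p = 0.055). Of 22 genes of senescence and its secretory phenotype 8 rose and 1 fell, and 6 and 1 with the alike libraries summed. Cdkn2a, the locus of the cell cycle inhibitor p16, measured 2.91, 5.03 and 2.23 CPM in the old females and 1.31, 1.73 and 1.58 CPM in the old males. At 6 months the females stood at 0.782, 1.20 and 1.35 CPM and the males at 0.433, 0.459 and 0.469 CPM. The old lay above the young within each sex, and the change was 1.68 ± 0.39 (SE; adjusted p = 0.014). Glb1, the lysosomal galactosidase used to stain senescent cells, rose by 0.71 ± 0.12 (SE; adjusted p = 0.002), the collagen-cutting Mmp3 by 1.55 ± 0.29 (SE; adjusted p = 0.0037) and the stress hormone Gdf15 by 1.65 (adjusted p = 0.016). Igfbp5, which binds insulin-like growth factors, changed by -1.64 ± 0.31 (SE; adjusted p = 0.0041), against the direction its list is named for, and Cdkn1a (p21) had 0.59 (adjusted p = 0.12). Of 22 complement genes 8 rose and 1 fell; the fall was Cd55, which shields cells from complement, at -0.89 ± 0.17 (SE; adjusted p = 0.0046). With the alike libraries summed 4 rose and 1 fell, and on nmrHAS2 libraries alone 5 and 2. Across the 12 fits that each lacked 1 library, Ccl12, Casp4, Il18, Cdkn2a, Glb1, Mmp3, Gdf15, Igfbp5 and Cd55 kept the call throughout. The threshold was missed in 3 fits for Cxcl2, 6 for Ccl6, 8 for Nlrp3 and Tlr4 and 9 for Cxcl9, with adjusted p of at most 0.14 (Cxcl9, without old female 2).

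Many neutrophil, granule and platelet genes rose, and these counts depended on the libraries in the fit. Of 16 neutrophil markers 13 rose (median 1.94), of 16 granule and myeloid progenitor genes 11 (median 2.33) and of 19 megakaryocyte and platelet markers 13 (median 1.10), and 0 fell in each. Without the library labelled old male nmrHAS2 3 the counts were 2, 0 and 0, with medians of 1.05, 1.49 and 0.79, and with the alike libraries summed they were 3, 0 and 3. With all 12 nmrHAS2 libraries fitted without the CreER libraries, the counts were 3, 0 and 1, at medians of 2.02, 2.40 and 1.17. The summed neutrophil markers were 10570.1 CPM in that library and 4308 CPM in old female nmrHAS2 3, with 838 to 1733 CPM in the other 4 old libraries and 429 to 1617 CPM in the 6 young ones. S100a8, a calcium-binding protein that fills the neutrophil's cytosol, measured 574, 272 and 1473 CPM in the old females and 372, 280.3 and 4116 CPM in the old males. The young females had 144, 146 and 118 CPM and the young males 83.5, 130.4 and 543 CPM. Young male 3 was the highest of the young and lay above 3 of the 6 old libraries; the change was 2.58 ± 0.65 (SE; adjusted p = 0.02). Il1r2, the decoy receptor for interleukin-1, rose by 2.28 ± 0.37 (SE; adjusted p = 0.0017) and Stfa2l1, which has near copies and is uncertain, by 1.91 (adjusted p = 0.012). Lcn2, an iron-scavenging granule protein, rose by 2.67 (adjusted p = 0.022) and Ms4a3, a gene of granulocyte progenitors, by 2.69 (adjusted p = 0.021). Myeloperoxidase, Mpo, measured 112, 16.2 and 183 CPM in the old females and 95.9, 53.5 and 281 CPM in the old males. Values in the young were 24.0, 23.1 and 11.1 CPM in females and 3.94, 13.4 and 89.2 CPM in males. The ages overlapped in both sexes, and the change was 2.22 ± 0.67 (SE; adjusted p = 0.045); Elane, Prtn3 and Ctsg, the serine proteases of the same granules, rose by 2.37 (adjusted p = 0.036), 2.48 (adjusted p = 0.033) and 2.62 (adjusted p = 0.027). Pf4 and Ppbp, the chemokines stored in platelets, rose by 1.51 (adjusted p = 0.032) and 1.29 (adjusted p = 0.034), and Tubb1, the platelet tubulin, by 1.26 (adjusted p = 0.017). Wfdc21 and Hp, also neutrophil genes, rose by 2.61 (adjusted p = 0.015) and 1.77 (adjusted p = 0.019), and the platelet receptor genes Gp1bb, Treml1 and Itga2b by 1.37 (adjusted p = 0.019), 1.28 (adjusted p = 0.02) and 1.06 (adjusted p = 0.02). With 1 library left out at a time, Il1r2 and Stfa2l1 kept the call throughout. No call was made in 1 fit for Tubb1 and Wfdc21, 2 for Gp1bb and Treml1, 3 for S100a8 and Itga2b, 4 for Ms4a3 and Hp, 6 for Lcn2 and Ctsg, 7 for Pf4, 8 for Elane, Prtn3 and Ppbp and 9 for Mpo, with adjusted p of at most 0.14 (Pf4, without old male 3) and of 0.06 (Tubb1, without old male 3) and 0.078 (Wfdc21, without old male 3).

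Red cell and proliferation genes did not pass the test in any member. Of 25 erythroid markers 0 were called, with a median of 0.03, and their summed level ran from 13646 to 114082 CPM in the 6 old libraries and 13172 to 166391 CPM in the 6 young libraries. Of 31 proliferation genes 0 were called, with a median of -0.05; Mki67 and Top2a had 0.01 (adjusted p = 1) and 0.03 (adjusted p = 0.99). Young male nmrHAS2 3 held the highest level of both lists among the 12 libraries, 166391 and 12064 CPM. Of 18 stem and progenitor markers 0 were called. Among the 10 mast cell and basophil markers 1 rose and 0 fell, beside 5.46% of all genes tested that rose. It was Hdc, which makes histamine, at 1.65 ± 0.31 (SE; adjusted p = 0.004). In the 12 fits without 1 library each, Hdc kept the call throughout.

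**Figure D3:**
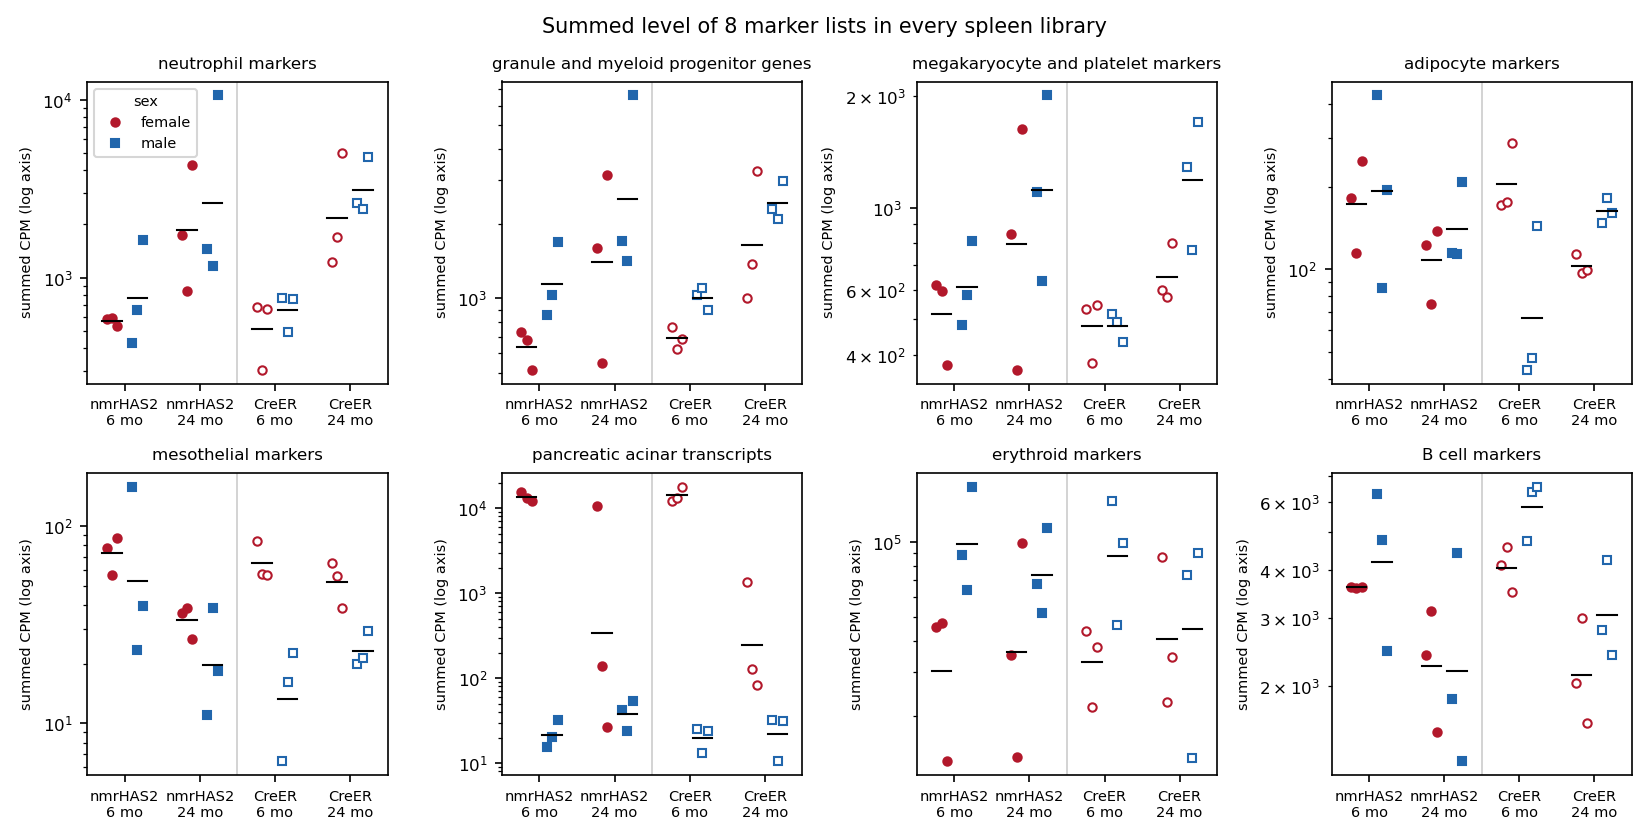
Summed CPM (log axis) of 8 marker lists in every spleen library, by genotype and age, with symbols and bars as for the single genes. Old male nmrHAS2 3 is the highest for the neutrophil, granule and platelet lists, young male nmrHAS2 1 for the adipocyte and mesothelial lists, and pancreatic transcripts run from 10469 to 17877 CPM in all 6 young females and old female nmrHAS2 1, with 1361 CPM in old female CreER 1 and less in all other libraries.

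Transcripts of neighbouring tissues differed between the ages. Of 11 adipocyte markers 8 fell and 0 rose (median -3.13), and of 10 mesothelial markers 4 fell and 0 rose (median -1.46). In females alone 0 members of either list passed, and in males alone 1 adipocyte and 0 mesothelial markers fell. Over all genes tested 1.61% fell in females and 0.767% in males. Car3, carbonic anhydrase of fat cells, measured 1.58, 8.17 and 3.82 CPM in the old females and 0.769, 3.77 and 7.41 CPM in the old males. In young females it was at 51.4, 24.5 and 47.5 CPM, and in young males at 116, 14.9 and 56.3 CPM. No old library overlapped a young one, and the change was -3.57 ± 0.88 (SE; adjusted p = 0.017). Plin1, the coat protein of fat droplets, changed by -2.81 ± 0.56 (SE; adjusted p = 0.0052), Cidec by -3.13 (adjusted p = 0.026) and the hormone Adipoq by -3.34 (adjusted p = 0.035). Fabp4 and Lpl, which macrophages and endothelium also make, had 0.53 (adjusted p = 0.54) and 0.63 (adjusted p = 0.095). Bnc1, a mesothelial transcription factor, changed by -2.14 (adjusted p = 0.026), and Wt1 by -0.74 (adjusted p = 0.019); the surface protein Msln had -1.35 (adjusted p = 0.14). Young male nmrHAS2 1 held the highest sums, 429 CPM for adipocyte and 158 CPM for mesothelial markers. Without it 3 adipocyte markers fell and 1 rose, with a median of -2.74, and 1 mesothelial marker fell; with the alike libraries summed 5 and 1 fell, and on nmrHAS2 libraries alone 8 and 1. Of 17 pancreatic acinar transcripts 0 were called, but their sum was 15582, 13207 and 12122 CPM in young females and 10469, 140.4 and 26.6 CPM in old females. In males it lay between 15.6 and 54.3 CPM. The part of fat, mesothelium and pancreas taken along with the spleen in these differences was not tested. Of 5 melanocyte genes Mlana had 2.87 (adjusted p = 0.037) and Tyrp1, at 0 in 5 of the 6 old libraries and 2 of the 6 young, -5.68 (adjusted p = 0.043); both were near the floor of detection, so these fitted values are no bound on a fold. When each of the 12 nmrHAS2 libraries was left out in turn, Plin1 kept the call throughout. The adjusted p exceeded 0.05 in 1 fit for Wt1, 3 for Cidec, 6 for Bnc1, 8 for Mlana and 9 for Adipoq and Tyrp1, with adjusted p of at most 1 (Tyrp1, without young male 3) and of 0.051 (Wt1, without old male 3).

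Genes of the spleen's frame are given beside the shares over all genes tested, 5.46% that rose and 3.37% that fell. Of 39 extracellular matrix genes 3 fell and 0 rose: Ltbp4, which stores latent TGF-beta, at -1.20 ± 0.23 (SE; adjusted p = 0.0042), Eln, elastin, at -0.76 ± 0.17 (SE; adjusted p = 0.0094), and the small proteoglycan Dcn at -1.14 (adjusted p = 0.044). Collagens Col1a1 and Col3a1 had -0.64 (adjusted p = 0.19) and -0.49 (adjusted p = 0.23). Of 19 endothelial markers 0 were called. In the list of 22 genes of lymphoid stroma and follicular dendritic cells 1 rose and 3 fell (median -0.21). The rise was that of Tnfsf13b, which encodes the B cell survival factor BAFF, by 0.85 ± 0.15 (SE; adjusted p = 0.0032). The falls were those of Cr2, Fcer2a and Wt1, given above. The chemokines Cxcl13, Ccl19 and Ccl21a had -0.03 (adjusted p = 0.97), -0.30 (adjusted p = 0.36) and -0.51 (adjusted p = 0.34). Of 27 hyaluronan genes 5 rose and 0 fell, and 2 with the alike libraries summed. They were Vcan and Tlr4, given above, Cemip2, a cell surface hyaluronidase, at 0.36 (adjusted p = 0.023), Itih3, a protein that is attached to hyaluronan, at 0.73 (adjusted p = 0.04), and Hapln1, which links hyaluronan to proteoglycans, at 4.13 (adjusted p = 0.011). Hapln1 was at or under 0.467 CPM in every library and at 0 in all 3 young males, so its fitted change is not a bound on the fold. The receptors Cd44 and Hmmr had 0.25 (adjusted p = 0.12) and -0.02 (adjusted p = 1), and the synthases Has1 and Has3 -0.82 (adjusted p = 0.42) and 0.06 (adjusted p = 0.94). Across the 12 fits that each lacked 1 library, Ltbp4, Eln, Tnfsf13b and Hapln1 kept the call throughout. A call was missing in 4 fits for Cemip2, 9 for Dcn and 10 for Itih3, with adjusted p of at most 0.18 (Dcn, without young male 1).

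The naming rule also picked genes by the size or the p of their change alone. Old and young ranges that lie apart in such genes follow in part from that choice. Gpr55, a lipid receptor of lymphoid and myeloid cells, measured 35.6, 32.5 and 13.2 CPM in the old females and 23.2, 24.6 and 19.5 CPM in the old males. At 6 months the females stood at 11.2, 10.7 and 14.3 CPM and the males at 6.10, 5.30 and 6.46 CPM. Old female 3 lay below young female 3 and the males did not overlap; the change was 1.54 ± 0.18 (SE; adjusted p = 0.00022). Litaf, a lysosomal protein induced by bacterial lipopolysaccharide, rose by 0.85 ± 0.10 (SE; adjusted p = 0.00023), Cd300lf, an inhibitory receptor of myeloid cells, by 1.31 ± 0.16 (SE; adjusted p = 0.00025), and Oosp1 by 1.53 ± 0.19 (SE; adjusted p = 0.00025); in all 3 the old and young ranges were apart. Rapgef4, an exchange factor that answers cyclic AMP, measured 4.56, 4.61 and 6.11 CPM in the old females and 2.80, 6.07 and 2.05 CPM in the old males. The young females had 14.8, 15.4 and 19.5 CPM and the young males 11.5, 9.05 and 7.92 CPM. The ranges were apart, with a change of -1.54 ± 0.23 (SE; adjusted p = 0.00096). Msl2, a ubiquitin ligase of a histone-acetylating complex, changed by -0.44 ± 0.07 (SE; adjusted p = 0.0013), with apart ranges. Slc28a2b, a nucleoside transporter gene with a near copy, changed by -2.80 ± 0.43 (SE; adjusted p = 0.0012). Mmp13, a collagenase, measured 4.96, 0.404 and 1.19 CPM in the old females and 28.1, 13.2 and 25.3 CPM in the old males. Values in the young were 0.718, 0.977 and 0.169 CPM in females and 0.563, 0.584 and 1.36 CPM in males. Old female 2 lay below 2 of the young females, and the males did not overlap. The rise, 3.28 ± 0.62 (SE; adjusted p = 0.0041), was 1.81 in females and 4.75 in males, and the test of the sex difference gave an adjusted p of 0.34. Nrg4, a growth factor of the EGF family, rose by 2.74 (adjusted p = 0.0099), and the receptor genes Mrgpra2b and Klra17, members of families with near copies and so uncertain, by 2.99 (adjusted p = 0.0081) and 2.68 (adjusted p = 0.012). Lipg, endothelial lipase, rose by 2.87 (adjusted p = 0.02), Negr1, a neuronal adhesion protein, by 2.75 (adjusted p = 0.039) and Itgb2l by 2.67 (adjusted p = 0.024). Among falls Crisp3, a secreted protein, changed by -2.40 (adjusted p = 0.011), Cdo1, which breaks down cysteine, by -2.22 (adjusted p = 0.0076), Myrf by -2.15 (adjusted p = 0.0039) and Cyp2e1, a detoxifying enzyme of liver and fat, by -2.82 (adjusted p = 0.031). With 1 library left out at a time, Gpr55, Litaf, Cd300lf, Oosp1, Rapgef4, Msl2, Slc28a2b, Mmp13, Nrg4, Mrgpra2b, Klra17, Crisp3, Cdo1 and Myrf kept the call throughout. The call was lost in 4 fits for Lipg, 7 for Itgb2l and Cyp2e1 and 8 for Negr1, with adjusted p of at most 0.16 (Negr1, without old male 1).

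**Figure D4:**
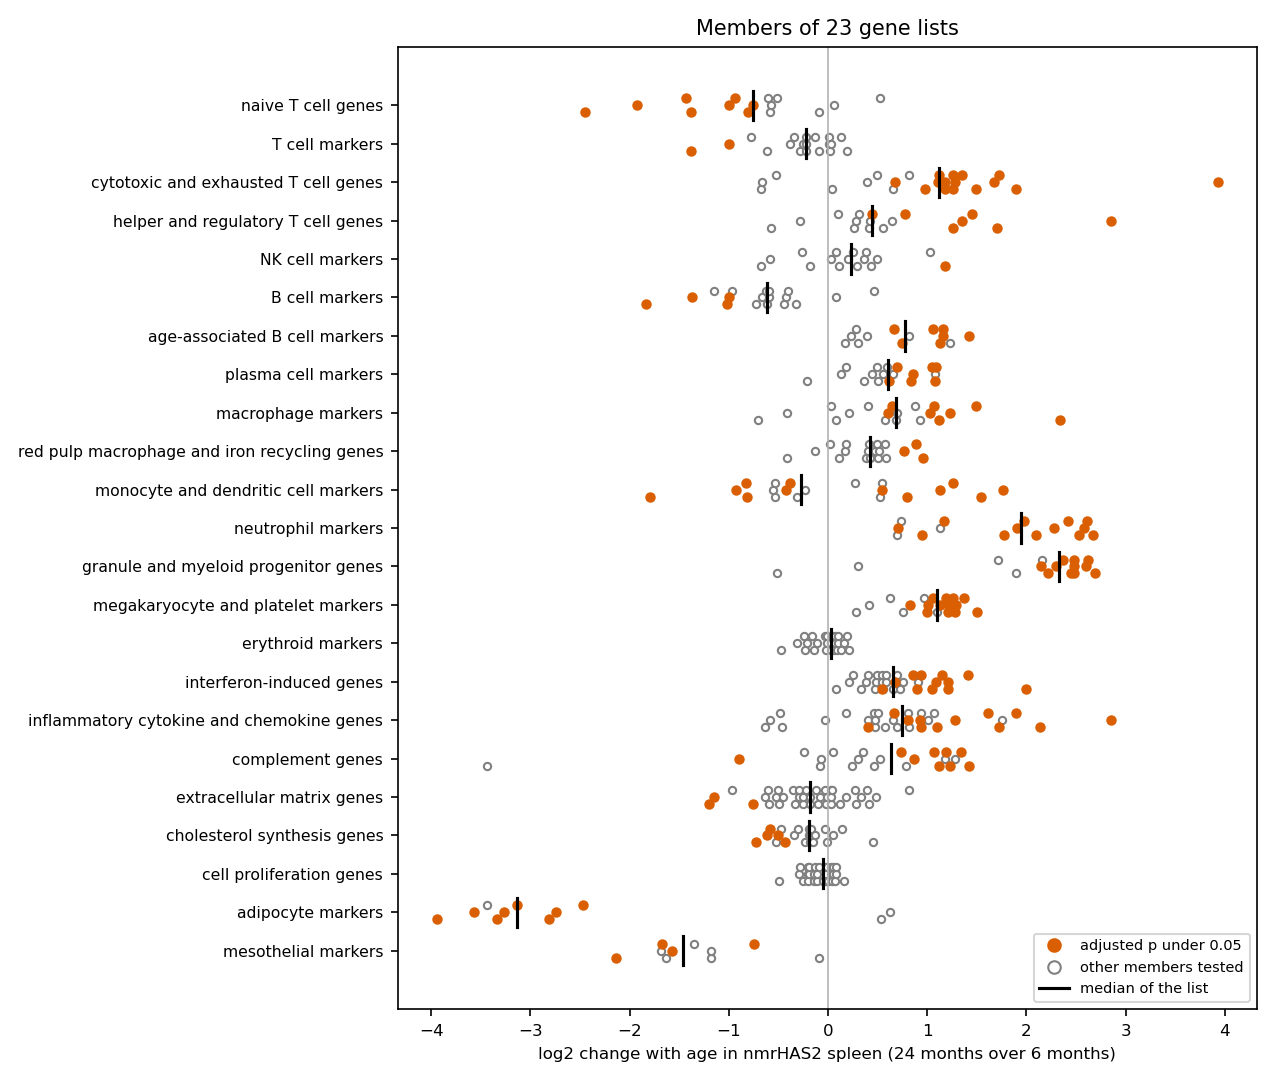
Log2 change with age in nmrHAS2 spleen of every tested member of 23 gene lists, one row per list; filled orange points passed an adjusted p of 0.05, open points did not, and the black bar is the list's median. Medians run from -3.13 for adipocyte markers to 2.33 for granule and myeloid progenitor genes, with erythroid and proliferation genes near 0.

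The same comparison in CreER spleen gave 1347 rises and 1503 falls (6.46 and 7.21% of genes tested, 13.7% together). No library stands in both contrasts, but all 24 were fitted together, so the comparisons share the filter and the estimate of spread. Of the genes that rose in nmrHAS2, 771 also rose in CreER, which is 67.7% of the nmrHAS2 and 57.2% of the CreER rises, and 3 fell there. Of the nmrHAS2 falls, 394 also fell in CreER, 56.1% of the nmrHAS2 and 26.2% of the CreER falls, and 0 rose there. The test of the difference in ageing between the genotypes called 0 of 20851 genes (0%) by edgeR (smallest adjusted p = 0.22), with 845 at an unadjusted p under 0.05; DESeq2 called 34, and 12 were called without old male CreER 2. A gene that passed in 1 genotype only is therefore not shown to age differently. Side by side, Gzmk changed by 3.93 in nmrHAS2 and 2.63 in CreER, Lef1 by -1.92 and -2.84, Satb1 by -1.44 and -2.17, and Il10 by 2.86 and 2.40. Granule genes had medians of 2.33 and 2.48, interferon-induced genes 0.66 and 0.59, and naive T cell genes -0.75 and -1.23. The lists farthest apart were adipocyte markers, at -3.13 and -0.40, and mesothelial markers, at -1.46 and 0.27. Plasma cell markers had medians of 0.60 and -0.06, and 0 of them rose in CreER. For Ighm the changes were 2.25 and 0.55, a difference of 1.70 ± 0.45 (SE; adjusted p = 0.55). Gzmm had 1.68 and -0.03, a difference of 1.71 ± 0.46 (SE; adjusted p = 0.56). Among the genes that the naming rule admits, the smallest p of the difference belonged to Fndc1 at -2.15 ± 0.45 (SE; adjusted p = 0.32), Adgrd1 at -1.55 ± 0.36 (SE; adjusted p = 0.45), Myl4 at 1.08 ± 0.25 (SE; adjusted p = 0.45), Lhx9 at -3.33 ± 0.78 (SE; adjusted p = 0.45) and Myrf at -2.45 ± 0.58 (SE; adjusted p = 0.45), none of which passed. Fndc1 and Lhx9 are a secreted matrix protein and a developmental transcription factor, Adgrd1 is an adhesion receptor, Myl4 a muscle myosin light chain and Myrf a transcription factor of glia. In nmrHAS2 itself Fndc1, Adgrd1, Lhx9 and Myrf changed by -1.45, -1.02, -2.33 and -2.15 with age; Adgrd1 and Lhx9 did not pass there in 1 of the 12 fits without 1 nmrHAS2 library, that without young male nmrHAS2 1 for Adgrd1 (adjusted p = 0.051) and young male nmrHAS2 1 for Lhx9 (adjusted p = 0.064). The control ageing comparison also rested on its libraries: it called 1654 genes with the alike pairs summed and 4691 without old male CreER 2.

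**Figure D5:**
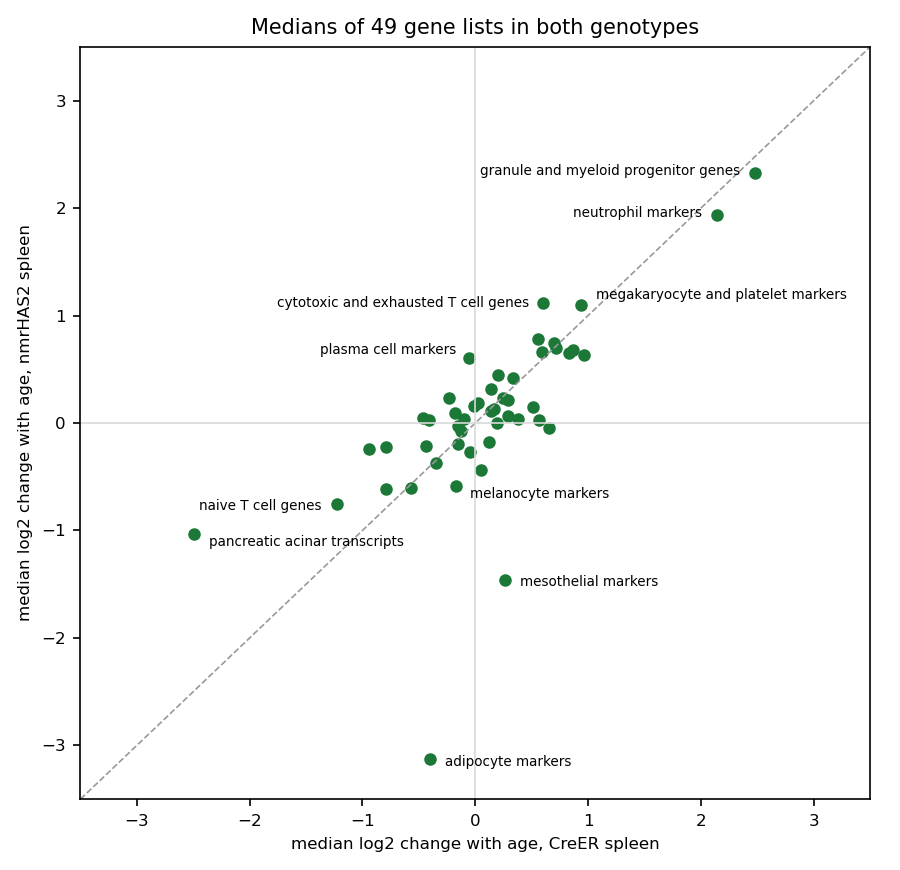
Median log2 change with age of 49 gene lists in CreER spleen (x axis) and nmrHAS2 spleen (y axis), one point per list, with the dashed line where both are equal. Adipocyte markers (-3.13 in nmrHAS2, -0.40 in CreER) and mesothelial markers (-1.46, 0.27) lie farthest below the line, and most other lists lie near it.

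Within the sexes, 121 genes rose and 336 fell in females (0.58 and 1.61% of genes tested, 2.19% together), and 661 rose and 160 fell in males (3.17 and 0.767%, 3.94% together). The female count rested on the alike pair: 8 genes passed without young female nmrHAS2 1, 16 without young female nmrHAS2 2 and 11 with them summed. It was 177 (70 rises and 107 falls) without old female nmrHAS2 1 and 157 (60 and 97) without old female nmrHAS2 2, and the balance turned without old female nmrHAS2 3, to 58 rises and 34 falls. Without a filter on low counts 95 rose and 112 fell. The male count ran from 328 (without young male nmrHAS2 2) to 1066 (without old male nmrHAS2 2) over the fits that left out 1 library, with 504 without young male nmrHAS2 3, 507 without the library labelled old male nmrHAS2 3 and 403 without old male nmrHAS2 1. Fitted on the 6 male nmrHAS2 libraries alone, 152 genes rose and 8 fell. The test of the difference between the sexes called 18 genes, 0.0863% of those tested, 17 of them with a larger log2 change in males; 3 were called with the alike libraries summed, and 3 to 32 in the fits that left out 1 library. Nlrp1b, an inflammasome sensor, measured 19.2, 16.6 and 13.1 CPM in the old females and 31.7, 21.4 and 19.0 CPM in the old males. In young females it was at 15.9, 17.3 and 20.6 CPM, and in young males at 5.54, 4.21 and 4.17 CPM. Its change was -0.14 in females and 2.37 in males, a difference of 2.51 ± 0.34 (SE; adjusted p = 0.0037). The neighbouring copy Nlrp1a had 0.00 and 2.16, a difference of 2.16 ± 0.36 (SE; adjusted p = 0.023); the family shares sequence, so its members are uncertain one by one. In both genes the 3 young males were the lowest of the 12 libraries. The difference in Nlrp1b passed in all 12 fits without 1 library, and that in Nlrp1a did not pass in 7 of them (adjusted p up to 0.096, without young male nmrHAS2 3). Lists whose medians differed between the sexes included the heat shock genes, at 0.10 in females and -0.85 in males, a gap that was not tested as a list. Of the 13 heat shock genes 5 fell in males and 0 in females, and 0 passed in the test over both sexes. Their summed level was 14566, 11406 and 5906 CPM in young males, of which the first 2 stood apart, and 5721 to 6099 CPM in old males.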

How the data were processed

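Per the submitters' processing notes, the authors used Salmon 1.4.0 for quantification after trimming by Trim Galore 0.6.5. The deposited table holds expected counts for 40946 genes and 144 libraries, with 0 columns of no sample, and was rounded to whole numbers here; its genome build and gene models were not given in the sources used here. The 24 spleen libraries (20.5 to 102.5 M counts) were fitted together in edgeR 4.0.16 (R 4.3.3) with 8 group means, TMM scaling and filterByExpr, which kept 20851 genes; contrasts weight the sexes equally, tests are 2-sided quasi-likelihood F tests, and p-values are adjusted by Benjamini-Hochberg over all genes. Levels are CPM after TMM scaling, except for summed lists and the transgene, which use library totals, and SE is the absolute log2 change over the square root of F. The fit was tested on simulated data in which all libraries were independent, so that test does not cover the alike pairs. Of the gene symbols, 39779 matched GENCODE M21 names. Replicate numbers were not taken as pairs, since 2 of 6 same-numbered old and young libraries correlated above 0.1 in their deviations (range -0.294 to 0.314).

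The members, lists and rules were chosen with earlier results of these data known. Named genes are the transgene and Has2, the 12 largest rises and falls and the 5 smallest p in each direction among called genes with at least 2 CPM on average and the same sign in both sexes (leaving out pseudogenes, clone-based names such as Gm or Rik, IDs with no symbol, antigen receptor segments, and Y-linked genes, Tsix and Xist), up to 4 members of each list with the smallest p, other list members with their values, and the 5 smallest p of each difference. Gene lists are described by counts and medians, with no test of a list, and some list members are not reported here by name. Alternatives were RLE size factors, no filter on low counts, a replicate block, DESeq2 1.42.0, only the groups compared, and each library left out in turn; added after seeing the data were leaving out old male nmrHAS2 3 with young male nmrHAS2 3 or 1, and summing the pairs alike in V segments.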

Additional observations from a re-analysis of the deposited data

Results flagged for a closer look

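The change with age differed between the sexes in 18 genes by edgeR's test of the difference itself, where sex and kind of library cannot be told apart. Beside Nlrp1b, with a male minus female difference of 2.51, and Nlrp1a, with 2.16, the named genes were Olfr735 at 1.79 ± 0.31 (SE; adjusted p = 0.023), Olfr374 at 1.61 ± 0.27 (SE; adjusted p = 0.023) and Diaph2 at 1.58 ± 0.27 (SE; adjusted p = 0.023). Olfr735 and Olfr374, odorant receptor genes, changed by -0.75 in females and 1.04 in males and by -0.82 in females and 0.78 in males. Diaph2, a regulator of actin, changed by -0.45 in females and 1.13 in males. With the alike libraries summed the adjusted p of Nlrp1a, Olfr374 and Diaph2 was 0.064 and that of Olfr735 0.073. Without 1 library at a time, the difference did not pass in 8 of 12 fits for Olfr735 and 7 for Olfr374 and Diaph2, with adjusted p up to 0.11 (Olfr735, without young male nmrHAS2 3).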

How the results depend on the processing

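Of 172 named genes that passed in nmrHAS2 ageing, 84 kept the call with each of the 12 libraries left out, 95 with the alike libraries summed and 67 under every setting run, and no called gene changed direction. The count for nmrHAS2 ageing (1841) was 1895 with RLE size factors, 1447 without a filter on low counts, 2776 with DESeq2, 1114 fitted on nmrHAS2 libraries alone, 924 to 2381 without 1 library, and, in settings chosen after seeing the data, 849 with the alike libraries summed and 859 and 1185 without old male nmrHAS2 3 and young male nmrHAS2 3 or 1. For females (457) it was 207 without a filter, 1880 with DESeq2, 8 to 412 without 1 library and 11 with libraries summed, and for males (821) 1589 with DESeq2, 160 fitted alone, 328 to 1066 without 1 library, 259 without the third old and young male, and 628 with libraries summed. The sex difference (18) gave 254 with DESeq2, 35 on nmrHAS2 libraries alone, 3 to 32 without 1 library, 7 and 4 without the pairs of male libraries, and 3 with libraries summed. CreER ageing (2850) gave 1777 to 4691 without 1 library and 1654 with libraries summed, and the genotype difference (0) gave 34 with DESeq2 and 0 to 12 without 1 library. Fewer samples enter the fits without a library; for the other changes the cause was not tested. With the replicate number as a block, which the labels do not tie to an animal or batch, the counts were 2141 for nmrHAS2 ageing, 717 for females and 49 for the sex difference. Depth differed between the sexes with library kind, so male counts for low genes are coarser.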

Other observations

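The 4 lists that follow stand beside the shares over all genes tested, 5.46% that rose and 3.37% that fell. Of 22 genes of cholesterol synthesis 5 fell and 0 rose (median -0.20), while without a filter on low counts 2 fell, and on nmrHAS2 libraries alone 0 fell and 1 rose. Srebf2, the factor that switches the pathway on, changed by -0.72 ± 0.16 (SE; adjusted p = 0.01), Sqle by -0.61 (adjusted p = 0.04), Idi1 by -0.58 (adjusted p = 0.037), Hmgcs1 by -0.50 (adjusted p = 0.028) and Hsd17b7 by -0.43 (adjusted p = 0.038), the last 4 being enzymes of the pathway. Of 20 antioxidant genes 3 rose and 0 fell: Gsr, glutathione reductase, by 0.84 ± 0.18 (SE; adjusted p = 0.0087), thioredoxin, Txn1, by 0.57 (adjusted p = 0.016) and the peroxidase Prdx1 by 0.47 (adjusted p = 0.046); Nqo1 had -0.03 (adjusted p = 1). Among 20 immediate early genes 1 rose and 2 fell. Ier3, which limits cell death, rose by 1.07 ± 0.20 (SE; adjusted p = 0.0037). Egr3, a factor induced by antigen receptors, changed by -1.33 (adjusted p = 0.015) and Klf4, a factor of myeloid and quiescent cells, by -0.53 (adjusted p = 0.0498). Fos had 0.49 (adjusted p = 0.56). Of 17 circadian clock genes the repressors Nfil3 and Bhlhe41 rose by 0.79 (adjusted p = 0.029) and 1.16 (adjusted p = 0.04), and Per1 had 0.20 (adjusted p = 0.72). With the alike libraries summed the calls in these 4 lists were 1 fall for cholesterol synthesis, 2 rises for antioxidants, 1 rise and 1 fall for immediate early genes and 0 for the clock. On nmrHAS2 libraries alone 1 antioxidant gene rose, and 1 immediate early gene rose and 0 fell. Srebf2 did not pass there. In the 12 fits without 1 library each, Srebf2, Gsr, Txn1, Ier3 and Egr3 kept the call throughout. Calls did not hold in 6 fits for Hmgcs1 and Nfil3, 8 for Idi1, 9 for Sqle, Hsd17b7 and Bhlhe41, 10 for Klf4 and 11 for Prdx1, with adjusted p of at most 0.13 (Bhlhe41, without old female 2).

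Further lists are set beside the shares over all genes tested, 5.46% that rose and 3.37% that fell. Marginal zone B cell markers had 1 rise and 0 falls of 10 (median 0.09), and germinal centre B cell markers 2 rises and 0 falls of 12 (median 0.03). Antigen presentation genes had 1 rise and 0 falls of 20 (median 0.15), and smooth muscle markers 0 rises and 1 fall of 12 (median -0.37). For nuclear genes of oxidative phosphorylation the counts were 1 rose and 0 fell of 38 (median 0.11), for mitochondrially encoded genes 0 rose and 0 fell of 13 (median 0.19), for ribosomal protein genes 0 rose and 0 fell of 26 (median -0.03), for heat shock genes 0 rose and 0 fell of 13 (median -0.44) and for p53 targets 0 rose and 0 fell of 20 (median 0.13). Use of heavy chain V segments differed from library to library at both ages. The leading Ighv segments of the old females were Ighv1-52 at 37.6%, Ighv1-64 at 15.7% and Ighv2-6-8 at 10.0% of their Ighv counts, and those of the old males Ighv5-4 at 25.2%, Ighv5-17 at 20.1% and Ighv5-4 at 10.4%. In young females they were Ighv5-4 at 32.2%, Ighv5-4 at 30.9% and Ighv1-75 at 23.8%, and in young males Ighv1-82 at 10.8%, Ighv1-26 at 7.17% and Ighv5-12 at 22.5%. The effective number of Ighv segments, the inverse of the summed squared shares, was 5.78, 14.4 and 24.8 in old females and 10.1, 10.6 and 21.9 in old males, against 8.73, 9.38 and 13.1 in young females and 29.4, 37.7 and 12 in young males. Within a group the leading segment differed between libraries, except in the alike pair of young females and in old males 1 and 3, which Ighv5-4 led as well. Beside the named genes the sex difference was called for Adam22, Pm20d1, Pcolce2, Ighv5-4 and genes known only by clone or Gm numbers, which were chosen after their values were seen: male minus female differences were 1.16 for Adam22, 2.73 for Pm20d1, -3.06 for Pcolce2 and 8.32 for Ighv5-4, the leading segment of the alike young females.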
